A study of Mus musculus with 24 samples.

Results

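The proximal end of the mandible was compared with the proximal end of the maxilla in control mouse embryos at embryonic day 12.5. The comparison used 6 of the 24 arrays of a study of jaw development, 3 of the control proximal mandible and 3 of the control proximal maxilla, chosen by their sample titles. The embryos came from matings of Wnt1cre;Tgfbr2fl/+ with Tgfbr2fl/fl mice, and the strain label is C57B6. The controls were littermates of the mutants, and the alleles each control carried are not given in the sources used here. Since 1 parent was homozygous for the floxed Tgfbr2 allele, every control carried at least 1 floxed copy. The other groups used here for comparison were the control distal mandible and maxilla and the proximal mandible and maxilla labelled Tgfbr2 knockout, with 3 arrays each. Wnt1-Cre is active in the neural crest and not in epithelium, muscle precursors or vessel endothelium, so cells of those kinds keep the gene in the mutants. Cleft palate and a calvarial defect are described for the mutants of this cross. Total RNA was labelled with biotin and read on single-colour expression arrays, and all values below are log2 signals.

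Both jaws form from the first pharyngeal arch, whose mesenchyme is mostly neural crest that enters without Hox gene expression. In the lower, mandibular part of the arch, endothelin-1 signalling turns on Dlx5 and Dlx6, which in turn support Hand2, and loss of this cascade in mice gives the lower jaw features of the upper jaw. The upper, maxillary part lies beside the eye and the nasal placode, and its mesenchyme meets nasal, oral and lacrimal epithelium. The jaw muscles grow from cranial mesoderm that moves into the mandibular arch, and the nerve supply of both jaws comes from the trigeminal ganglion.

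The promoter windows of 3 genes are shown because these genes stood among the largest differences, Hand2 on the mandible side and the homeobox gene Uncx and the zinc finger gene Fezf1 on the maxilla side. Each runs from 250 bases before to 50 bases after the gene's start in RefSeq, on build GRCm38.p6 and 5′ to 3′ on the gene's strand. Capitals mark matches on either strand to TAATTA or TAATTG, core sequences bound by Dlx and other homeodomain proteins, or to CATCTG, an E-box bound by Hand proteins. The Hand2 window is chr8:57320733-57321032 on the plus strand, the Uncx window chr5:139543648-139543947 on the plus strand, and the Fezf1 window chr6:23248215-23248514 on the minus strand.
Hand2: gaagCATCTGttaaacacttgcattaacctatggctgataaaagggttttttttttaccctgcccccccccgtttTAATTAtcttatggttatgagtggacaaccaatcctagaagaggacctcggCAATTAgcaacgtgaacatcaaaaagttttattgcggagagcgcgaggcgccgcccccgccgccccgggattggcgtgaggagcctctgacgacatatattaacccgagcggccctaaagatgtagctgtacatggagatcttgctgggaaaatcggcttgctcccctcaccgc
Uncx: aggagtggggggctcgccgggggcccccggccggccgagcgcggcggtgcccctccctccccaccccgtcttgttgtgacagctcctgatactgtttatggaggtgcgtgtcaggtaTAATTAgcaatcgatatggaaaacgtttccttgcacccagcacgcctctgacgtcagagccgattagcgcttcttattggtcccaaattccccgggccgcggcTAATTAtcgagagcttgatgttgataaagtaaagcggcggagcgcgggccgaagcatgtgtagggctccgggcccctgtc
Fezf1: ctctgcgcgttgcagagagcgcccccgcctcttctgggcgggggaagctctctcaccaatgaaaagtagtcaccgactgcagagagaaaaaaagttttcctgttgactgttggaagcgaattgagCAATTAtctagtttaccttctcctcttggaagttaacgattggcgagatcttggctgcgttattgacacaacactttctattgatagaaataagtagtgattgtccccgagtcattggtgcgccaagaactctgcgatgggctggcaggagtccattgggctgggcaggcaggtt
The Hand2 window held 1 match to each motif, the Uncx window 2 matches to TAATTA, and the Fezf1 window 1 match to TAATTG. Of the 32851 RefSeq windows of this length, 5.29% held TAATTA, 8.0% TAATTG and 17.2% CATCTG. Among the windows of tested genes these shares were 2.75%, 5.09% and 12.4%. Genes called higher in the mandible by at least 1 on the log2 scale had TAATTA in 6.45%, TAATTG in 4.15% and CATCTG in 18% of 217 windows. The corresponding genes called lower had them in 5.34%, 7.12% and 12.1% of 281 windows. A match describes these letters and is not evidence of binding.

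The 6 arrays were checked first. The correlation of deviations from the mean of all 24 arrays, averaged over the other arrays of the same group, was 0.70 to 0.77 for the mandible arrays and 0.68 and 0.71 for maxilla 2 and maxilla 3. Maxilla 1 stood apart, with 0.54 to its own group and 0.69 to the distal maxilla arrays. Maxilla 2 and maxilla 3 were also like the distal maxilla arrays, at 0.60 and 0.62, but less than like their own group. All 6 arrays correlated negatively with the other proximal jaw (-0.67 to -0.54). Eif2s3y, a Y-linked gene, had a signal of 10.29 in mandible 2 and 10.22 in maxilla 2 and of 3.88 or less in the other 4 arrays, and Xist, the RNA of the inactive X chromosome, was low in those 2 arrays, so that sex was balanced between the jaws. Maxilla 2 and maxilla 3 were the most alike pair, with a root mean square difference of 0.196. Whether replicate arrays stem from different embryos is not labelled. The Eif2s3y and Xist signals set mandible 2 and maxilla 2 apart in sex from the other 4 arrays. Within each jaw, array 2 therefore did not share its embryo with arrays 1 and 3. Whether arrays 1 and 3 of a jaw came from different embryos was not tested. The p-values reflect array-to-array spread, part of which may be technical. The fits without the control arrays numbered 2 left out mandible 2 and maxilla 2.

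Of 14879 genes tested, 1182 were higher in the proximal mandible (7.94%) and 969 were higher in the proximal maxilla (6.51%), at an adjusted p under 0.05 in limma. The counts given below for each gene list are to be read against these shares. Differences are mandible minus maxilla, so that a negative value is higher in the maxilla. The median difference over all genes was 0.02, and the median size among the genes called was 0.50. A size of at least 1, a doubling, was reached by 247 of the genes called higher (1.66% of genes tested) and 287 called lower (1.93%). The arrays of the jaws did not overlap for 1179 of the genes called higher and 967 of those called lower, while 24.4% and 21.2% of all genes tested had such separation. After cyclic loess scaling 44.4% of the genes called were higher in the mandible, against 55.0% here. The count fell when single arrays were left out, to 1328, 1142 and 1278 without mandible 1, 2 and 3, and to 941 without maxilla 1, 377 higher and 564 lower. Without maxilla 1, 907 of the 2151 genes stayed called, among them 405 of the 534 with a size of at least 1. In tissue samples, a larger number of cells of a type and more RNA per cell cannot be told apart.

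**Figure D1:**
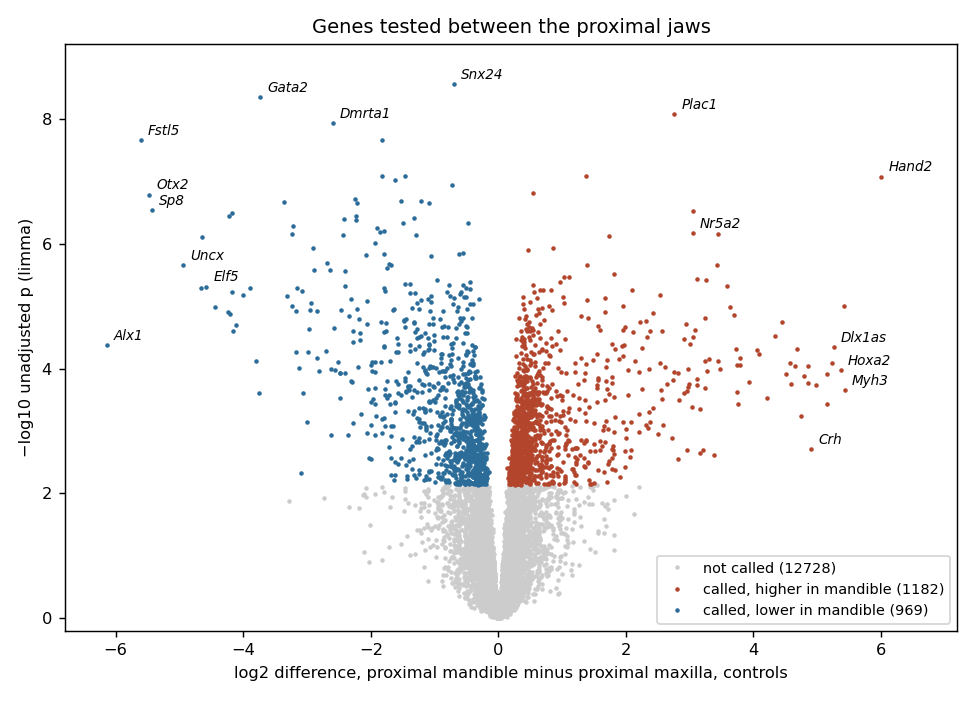
Each point is 1 of the 14879 genes tested, with the log2 difference between control proximal mandible and control proximal maxilla on the x axis and the unadjusted limma p on a −log10 scale on the y axis. Red points are the 1182 genes called higher in the mandible, blue points the 969 called lower and grey points the genes not called. Hand2 lies farthest to the right at 6.0 and Alx1 farthest to the left at -6.14.

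Genes of the mandibular programme separated the jaws. Hand2, a bHLH factor of the ventral arch mesenchyme, had the largest difference of all genes toward the mandible, with signals of 11.86, 11.97 and 12.30 in the mandible arrays and 5.12, 6.64 and 6.39 in the maxilla arrays. The groups were far apart, with a difference of 6.0 (SE 0.701, adjusted p = 0.000126), or 64.0-fold. Of 10 mandibular identity genes tested, 6 were higher in the mandible and 0 lower, with a median difference of 1.62 against 0.02 over all genes. Without maxilla 1 the count was again 6, with a median of 1.83, and without the control arrays numbered 2 it was 1, with a median of 1.5. Besides Hand2 these were Dlx4, Dlx5, Dlx6, Pitx1 and Gbx2. Pitx1, a homeobox factor of the mandibular mesenchyme and oral epithelium, had 12.19, 12.33 and 12.61 in the mandible against 9.37, 10.52 and 10.50 in the maxilla, a difference of 2.25 (SE 0.489, adjusted p = 0.00579). Gbx2, another homeobox gene of the mandibular arch, had 7.33, 7.56 and 8.35 against 4.79, 4.51 and 4.83. The maxilla values of Gbx2 lay below the 30th percentile of the arrays (5.85 to 5.93), taken here as background, so its difference of 3.04 (adjusted p = 0.00828) amounts to at least 1.86 above background. Gsc, a homeobox target of the endothelin pathway, did not pass, with 11.04, 11.05 and 11.53 against 9.56, 10.89 and 10.85 (adjusted p = 0.42). Hand1, a relative of Hand2 that marks the distal tip of the mandible, had a difference of 0.03 (adjusted p = 0.934), and Isl1 one of 0.46 (adjusted p = 0.467).

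The Dlx homeobox genes lie in pairs of neighbours, Dlx1 and Dlx2 on chromosome 2, Dlx5 and Dlx6 on chromosome 6 and Dlx3 and Dlx4 on chromosome 11. Counting the long noncoding RNAs Dlx1as and Dlx6os1, 7 of 8 members tested were higher in the mandible and 0 lower, with a median difference of 2.35. Dlx5, needed for lower jaw identity, had 12.61, 12.72 and 12.69 in the mandible and 11.59, 11.04 and 11.15 in the maxilla, a difference of 1.42 (SE 0.328, adjusted p = 0.00831). Dlx6, its partner, had 10.92, 11.37 and 11.41 against 9.45, 9.32 and 9.44, a difference of 1.83 (SE 0.442, adjusted p = 0.0105). The pair active in both parts of the arch stood on the same side. Dlx1 had 10.63, 10.63 and 10.96 against 7.37, 8.27 and 8.13, a difference of 2.82 (SE 0.578, adjusted p = 0.00406), and Dlx2 one of 2.36 (SE 0.557, adjusted p = 0.00942). Dlx1as, transcribed antisense to Dlx1, showed the widest gap of the family, 11.54, 11.71 and 11.79 against 5.66, 6.99 and 6.60, a difference of 5.26 (SE 0.991, adjusted p = 0.00246). Dlx4 differed by 2.76 (adjusted p = 0.00402), and since its maxilla mean lay at background the difference is at least 2.51. Dlx3, an epithelial and mesenchymal member, had 9.95, 10.04 and 9.86 against 9.31, 8.07 and 8.24 and did not pass (1.41, adjusted p = 0.067). The result for Dlx3 depends on the probe set. Its other, dimmer probe set gave 1.17, with means of 7.99 in the mandible and 6.83 in the maxilla (unadjusted p = 7.63e-05 in limma). Dlx6os1 differed by 2.34 (adjusted p = 0.0134) and missed the threshold without mandible 2 and without maxilla 1 (adjusted p up to 0.0652). The other 6 stayed called when any 1 proximal array was left out, and 2 of the 8 were called without the control arrays numbered 2.

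**Figure D2:**
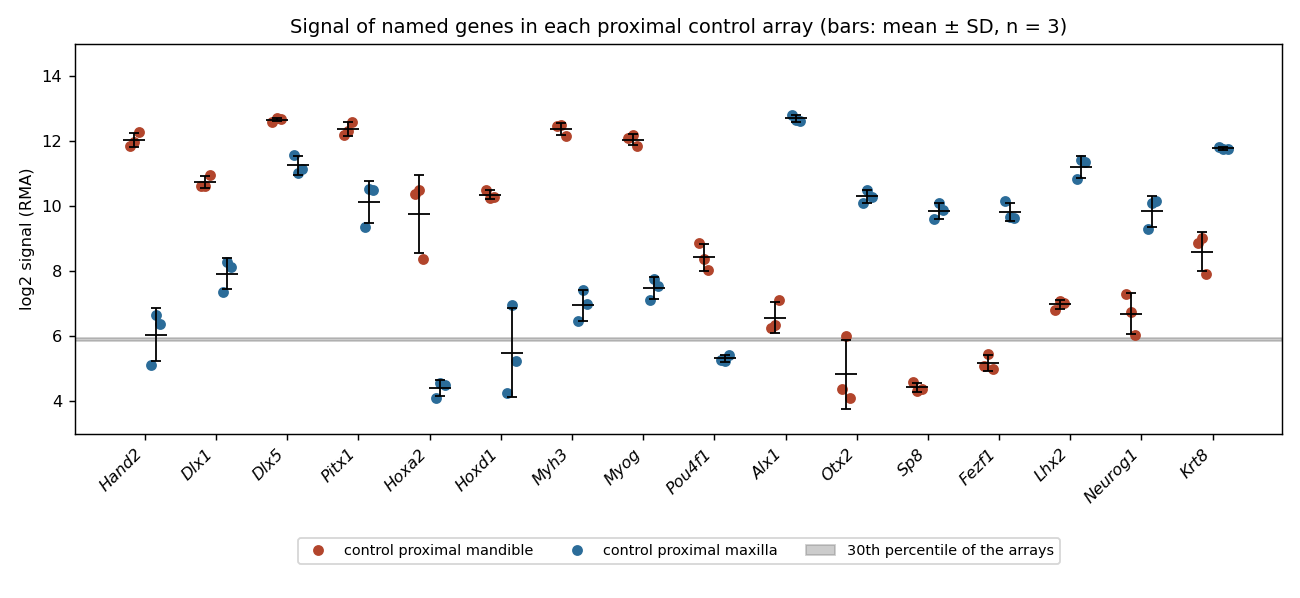
Log2 signal (y axis) of 16 named genes (x axis) in each of the 6 control proximal arrays. Red points are mandible arrays and blue points maxilla arrays, bars are the mean and SD of 3 arrays, and the grey band is the 30th percentile of the arrays. For each gene shown the red and blue points do not overlap, and Hand2, Hoxa2 and Alx1 differ by more than 5.

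Hox genes, which mark neural crest of the second arch and behind, were detected in the proximal mandible. Of 8 tested, 5 were higher in the mandible and 0 lower, with a median difference of 1.08, and 3 were called without maxilla 1 and 1 without the control arrays numbered 2. The list held 13 genes, 11 of them on the arrays. The filter kept genes above background in as few as 3 arrays, and 4 of the 8 had a maxilla mean below background. The count and median therefore rest partly on the filter. Hoxa2, the selector gene of the second arch, had 10.39, 10.51 and 8.37 in the mandible and 4.11, 4.56 and 4.50 in the maxilla. Mandible 3 was lower than the other mandible arrays, yet above every maxilla array, and the difference of 5.37 (SE 1.09, adjusted p = 0.00395) amounts to at least 3.87 above background. Hoxd1 had 10.51, 10.26 and 10.30 against 4.26, 6.97 and 5.25, a difference of 4.86 (SE 1.03, adjusted p = 0.00504) or at least 4.10. Hoxb2 followed mandible 3 in the same way as Hoxa2, with 8.95, 9.05 and 7.52 against 6.23, 6.23 and 6.45 (2.21, adjusted p = 0.0098, and 0.0521 without mandible 2). Hoxd3 (1.52, adjusted p = 0.0226) and Hoxa3 (0.64, adjusted p = 0.0121) were called in 2 and 3 of the 6 fits without 1 proximal array, with adjusted p up to 0.0934 and 0.0654, and Hoxd3, at background in the maxilla, differed by at least 0.35. Hoxb3, Hoxb4 and Hoxa5 did not pass, at 0.32, 0.43 and 0.10.

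On the maxilla side, Alx1, a homeobox gene of the mesenchyme around the eye and nose, had the largest difference. Its signals were 6.24, 6.35 and 7.11 in the mandible and 12.82, 12.67 and 12.63 in the maxilla, a difference of -6.14 (SE 1.15, adjusted p = 0.00235), or 70.5-fold. Among 32 facial mesenchyme factors, 4 were higher in the mandible and 5 in the maxilla, with a median of -0.08, and without maxilla 1 the counts were 3 and 4. Tfap2b, an AP-2 factor of the neural crest and facial ectoderm, had 9.74, 10.14 and 9.19 against 12.49, 11.87 and 11.74 (-2.34, SE 0.400, adjusted p = 0.00139). Its relative Tfap2a followed with -1.40 (adjusted p = 0.0289, called in 3 of the 6 fits without 1 proximal array). Eya1, a transcriptional coactivator and phosphatase, had 10.74, 10.55 and 10.95 against 12.08, 11.96 and 11.91 (-1.24, adjusted p = 0.0024), and Six2 differed by -1.05 (adjusted p = 0.00367). On the mandible side stood Pitx1, Prrx1 (0.73, adjusted p = 0.00342), Twist2 (0.78, adjusted p = 0.00857) and Osr1. Osr1, a zinc finger factor, had 11.25, 11.97 and 11.79 against 10.09, 10.09 and 10.06 (1.59, adjusted p = 0.0179) and lost its call without mandible 2, mandible 3 or maxilla 1 (up to 0.077). The signal of Prrx1 was 13.39 to 13.54 in the mandible and 12.62 to 12.83 in the maxilla.

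Genes listed for maxillary identity did not follow the list's name. Of 10 tested, 3 were called, and all 3 were higher in the mandible. Sim2, a bHLH-PAS factor needed for the palate, had 10.09, 10.22 and 9.97 in the mandible and 5.80, 7.58 and 6.76 in the maxilla (3.38, SE 0.961, adjusted p = 0.0251). Cyp26a1, which breaks down retinoic acid, had 9.32, 9.36 and 9.98 against 7.89, 8.04 and 8.05 (1.56, SE 0.325, adjusted p = 0.00449). Shox2, a homeobox gene of the palate and jaw joint, had 12.48, 12.47 and 12.74 against 11.50, 11.33 and 11.36 (1.17, adjusted p = 0.0351). Cyp26a1 stayed called when any 1 proximal array was left out, Sim2 in 1 of these 6 fits (adjusted p up to 0.127) and Shox2 in 0 (up to 0.107). Tbx22, a palate gene, and Foxl2, a factor of the periocular mesenchyme, were higher in each maxilla array than in any mandible array but did not pass. Tbx22 had 8.47, 8.47 and 9.23 against 9.79, 11.45 and 11.15 (-2.07, adjusted p = 0.0535). Foxl2 had 9.30, 8.96 and 8.86 against 10.05, 11.38 and 11.20 (-1.83, adjusted p = 0.0523, and 0.0359 with the array number as a block). For both, maxilla 1 was the lowest of its group. Nr2f1, Nr2f2, Pou3f3, Irx5 and Meis2 did not pass, with differences between -0.27 and 1.16 in the probe sets used. Other, dimmer probe sets gave 0.22 to 1.47 for Nr2f2, -0.16 to 0.58 for Meis2 and 1.28 for Pou3f3. The unadjusted p in limma was 0.00207 for the largest of Nr2f2 and 0.000217 for that of Pou3f3.

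Of 12 palate mesenchyme genes, 4 were higher in the mandible and 1 lower, with a median of 0.61, and 1 higher and 0 lower were called without maxilla 1. Meox2, a homeobox gene of the posterior palate, had 10.97, 10.86 and 10.95 against 6.77, 8.68 and 8.46 (2.96, SE 0.646, adjusted p = 0.00589). The other 3 were Sim2, Shox2 and Osr1, and the member lower in the mandible was Efnb1, an ephrin ligand (-0.45, adjusted p = 0.0184, called in 3 of the 6 fits without 1 proximal array). Barx1, a homeobox gene of proximal jaw mesenchyme, had 12.80, 12.72 and 12.91 against 9.45, 11.52 and 11.44, with maxilla 1 far below the others, and did not pass (2.01, adjusted p = 0.0653). Of 12 tooth genes, Dlx2 was higher in the mandible and Eda, a ligand of the TNF family, lower (-0.48, adjusted p = 0.00991, and 0.0616 without maxilla 1), and the other 4 of the 5 probe sets of Eda gave 0.00 to 0.12.

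The share of signalling genes called is to be read against the 14.5% called over all genes. Of 9 endothelin pathway genes, Edn3 (0.90, adjusted p = 0.00991) and Gna11 (0.22, adjusted p = 0.035) were higher in the mandible, and Ece1, the enzyme that activates endothelins, was lower (-0.58, SE 0.0998, adjusted p = 0.00151). The ligand Edn1 differed by 0.40 and did not pass (adjusted p = 0.145). Ece1 kept its call without any 1 proximal array, while Edn3 lost its call without maxilla 1 (adjusted p = 0.0679). Gna11 was called in 0 of these 6 fits, and its other probe set gave -0.07. Of 18 BMP genes, the ligand Bmp7 (-0.76, adjusted p = 0.0142) and the inhibitor Smad6 (-0.56, adjusted p = 0.0248) were higher in the maxilla, and they were called in 4 and 2 of the 6 fits without 1 proximal array and in neither without maxilla 1. Bmp4, a ligand of the facial epithelium and mesenchyme, had 12.56 in maxilla 1, 11.54 and 11.51 in the other maxilla arrays and a mandible mean of 10.73 ± 0.18 (SD, n = 3), and did not pass (adjusted p = 0.0619). Of 13 Notch genes 3 were lower in the mandible. Among them Hey1, a Notch target, had 10.26, 10.42 and 10.25 against 11.53, 11.57 and 11.60 (-1.25, SE 0.228, adjusted p = 0.002) and stayed called without any 1 proximal array. The other 2, the ligand Jag2 (-0.62) and the receptor Notch3 (-0.46), were called in 4 and 5 of these 6 fits and were lost without maxilla 1 (adjusted p = 0.0832 and 0.0647).

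Of 19 Wnt genes, 4 were higher in the mandible: the ligands Wnt11 (1.44, adjusted p = 0.0226) and Wnt10a (0.82, adjusted p = 0.0324), the antagonist Dkk2 (0.81, adjusted p = 0.0181) and the R-spondin receptor Lgr5 (0.86, adjusted p = 0.0473, and 0.0549 with the array number as a block). None of the 4 was called without maxilla 1, where their adjusted p ranged from 0.0732 to 0.206, and over the 6 fits without 1 proximal array they were called in 2, 1, 4 and 0. Of 17 FGF genes, the ligand Fgf18 was higher in the mandible (1.02, adjusted p = 0.0293, called in 1 of these 6 fits). Of 13 retinoic acid genes, Cyp26a1 and Rdh10, the enzyme that makes retinal (0.56, adjusted p = 0.008, and 0.0526 without maxilla 1), were higher in the mandible. Aldh1a3, which makes retinoic acid beside the eye and nose, had 9.42, 10.96 and 10.77 in the maxilla and a mandible mean of 8.27 ± 0.20 (SD, n = 3), with maxilla 1 again the lowest, and did not pass (-2.11, adjusted p = 0.0619). Of 12 Hedgehog genes 0 were called by limma, 3 had an unadjusted p under 0.05, and the smallest adjusted p were those of Smo (0.092) and Gli2 (0.13). Among 16 TGF-beta genes Smad2 was higher (0.61, adjusted p = 0.00692, and 0.0501 without maxilla 1) and Skil lower (-0.24, adjusted p = 0.0198). Skil lost its call without mandible 2 and without maxilla 3 (adjusted p up to 0.0928), and its other probe set gave 0.20. Tgfbr2 had 12.16, 12.08 and 11.98 in the mandible and 11.51, 11.69 and 11.63 in the maxilla, and did not pass (0.46, adjusted p = 0.187). Its dimmer probe sets gave 0.63 (unadjusted p = 6.56e-05 in limma) and, at background, -0.20, so the result for Tgfbr2 depends on the probe set. Of 16 guidance genes Epha3 was higher (0.85) and Robo2 (-1.39) and Efnb1 lower. Epha3 was called in 2 and Robo2 in 3 of the 6 fits without 1 proximal array, and 0 of the 16 without maxilla 1.

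Of 10 olfactory and nasal genes tested, 7 were lower in the mandible and 0 higher, with a median of -2.79 against 0.02 over all genes, and the count was 7 without maxilla 1 and 7 without the control arrays numbered 2. Otx2, a homeobox gene of the forebrain and nasal epithelium, had 4.36, 6.02 and 4.08 in the mandible and 10.10, 10.51 and 10.30 in the maxilla (-5.48, SE 0.670, adjusted p = 0.000166), at least 4.38 above background. Sp8, a zinc finger factor of the nasal pit, had 4.59, 4.31 and 4.38 against 9.61, 10.10 and 9.88 (-5.43, SE 0.692, adjusted p = 0.000201), at least 3.98. Fezf1, a factor of olfactory sensory neurons, had 5.08, 5.45 and 5.00 against 10.15, 9.68 and 9.65 (-4.65, SE 0.635, adjusted p = 0.000286), at least 3.94. Pax6, a paired-box gene of eye and nose, had 5.47, 5.52 and 5.93 against 7.93, 9.45 and 9.24 (-3.24, adjusted p = 0.000276), at least 2.97. In all 4 genes the mandible means lay at background. Other probe sets of Pax6 gave -1.60, -0.18, -0.09 and -0.07. Six3 differed by -2.43 in the probe set used (adjusted p = 0.000276), while its 2 other, dimmer probe sets gave -0.75 and 0.18. Omp, the marker of mature olfactory neurons, differed by 0.10 and did not pass (adjusted p = 0.405), nor did Ebf2 and Emx2.

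Among 16 eye and forebrain genes 4 were lower in the mandible, Otx2, Lhx2, Pax6 and Six3, and 1 was higher, the small heat shock protein gene Cryab (1.34, adjusted p = 0.0188, called in 3 of the 6 fits without 1 proximal array). Lhx2, a LIM homeobox gene, had 6.82, 7.09 and 7.03 against 10.83, 11.42 and 11.38 (-4.23, SE 0.546, adjusted p = 0.000215). The pigment cell genes Tyr, Pmel and Dct and the lens genes Cryaa and Crybb1 did not pass, with differences of 0.07 to 0.25, and Rax, which defines the retina, differed by 0.14. The remaining genes with the largest differences toward the maxilla included further factors of the placodes and neural tube. Uncx had 4.45, 4.93 and 4.81 against 9.53, 9.74 and 9.73 (-4.94, SE 0.728, adjusted p = 0.000591), at least 3.78. Olig1, a bHLH factor of neural progenitors, had 5.9, 5.68 and 6.08 against 9.66, 11.06 and 10.93 (-4.66, adjusted p = 0.000949). Dmrt3, a factor of the olfactory region, had 6.07, 6.07 and 6.37 against 10.33, 10.79 and 10.75 (-4.45, adjusted p = 0.0012), and of its 4 probe sets 3 were lower in the mandible. Fstl5, a follistatin-like gene, had 6.03, 5.76 and 5.06 against 10.80, 11.51 and 11.37 (-5.61, SE 0.599, adjusted p = 5.47e-05), at least 5.30 since its mandible mean lay at background. Hpse2 (-4.21), Trim66 (-4.24), Atp8b4 (-4.16), 5730403I07Rik (-4.18) and Six3os1 (-4.18), which lies on the opposite strand beside Six3, completed the 15 largest together with Elf5. The mandible means of Hpse2, Trim66, 5730403I07Rik and Six3os1 lay at background, so that their differences are at least 3.39, 2.55, 3.65 and 2.86. These 6 stayed called when any 1 proximal array was left out, with adjusted p no higher than 0.00956.

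**Figure D3:**
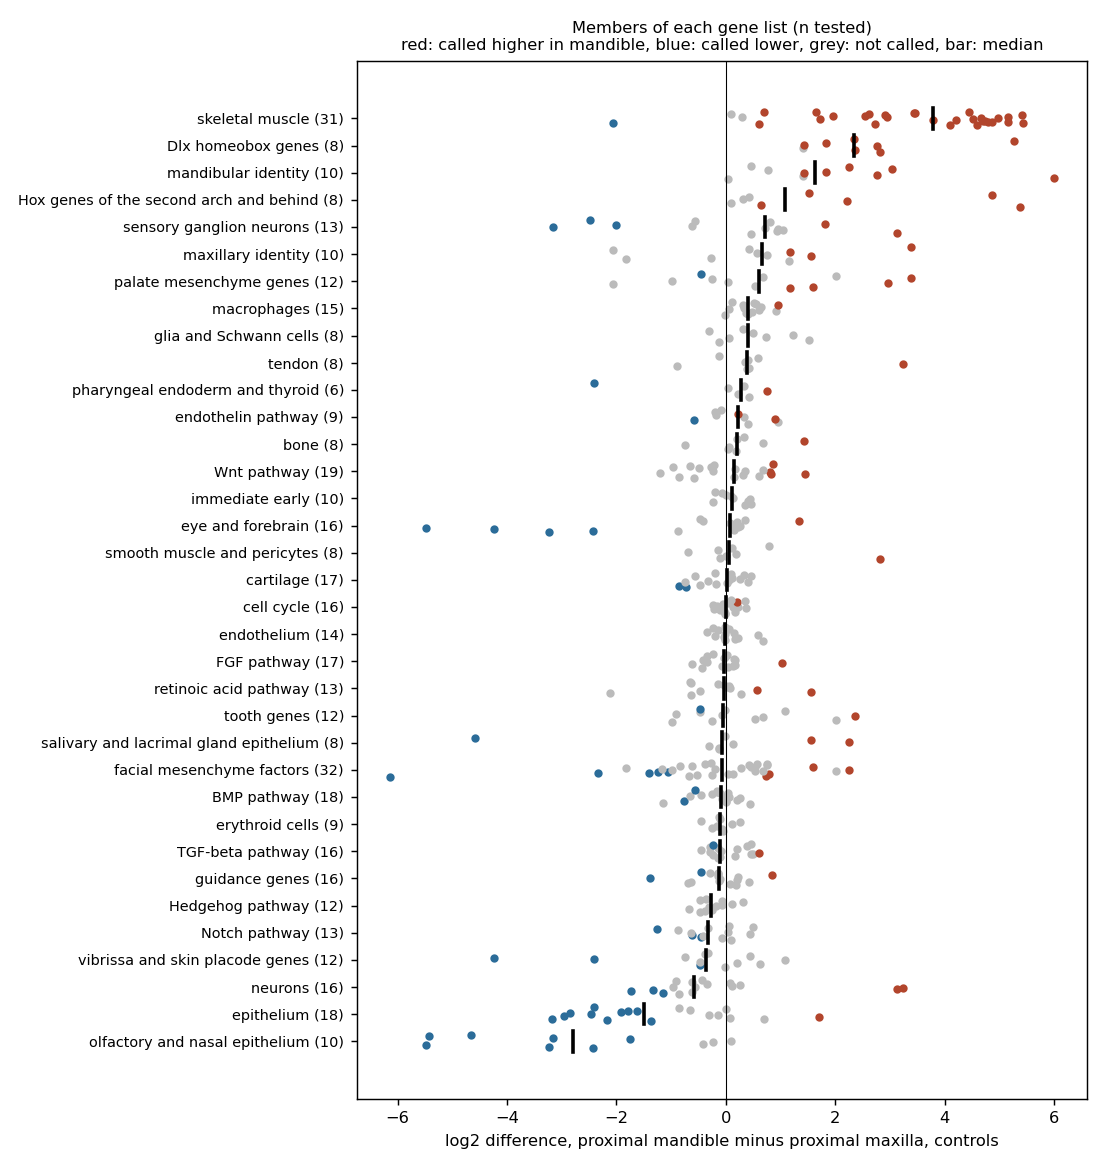
Each row is a gene list with the number of its genes tested, and each point is the log2 difference of 1 gene between control proximal mandible and maxilla (x axis). Red points were called higher in the mandible, blue points lower and grey points not called, and black bars are medians. Skeletal muscle has the highest median (3.79) and olfactory and nasal epithelium the lowest (-2.79).

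Epithelial genes were lower in the mandible. Of 18 tested, 10 were lower and 1 higher, with a median of -1.49, and without maxilla 1 the counts were 9 and 0. Krt8, a keratin of simple epithelia, had 8.86, 9.03 and 7.92 in the mandible and 11.83, 11.76 and 11.77 in the maxilla (-3.18, SE 0.608, adjusted p = 0.00267), and its partner Krt18 had 8.59, 8.56 and 8.17 against 11.41, 11.41 and 11.35 (-2.95, SE 0.495, adjusted p = 0.00123). The tight junction genes Cldn7 (-2.85) and Cldn6 (-2.47) and the adhesion gene Epcam (-2.17) were lower too, each with an adjusted p of 0.00209 or less. Mandible 3 had the lowest value of all 6 arrays in each of these 5 genes. Keratins of stratified epithelium did not share the direction. Krt14 (0.08) and Krt5 (0.69) and their regulator Trp63 (-0.15) did not pass, and Krt15 was higher in the mandible, with 10.54, 10.89 and 8.22 against 8.43, 8.16 and 7.95 (1.70, adjusted p = 0.0471, called in 1 of the 6 fits without 1 proximal array). The mean epithelial score, the average deviation of the listed genes from their mean over the 24 arrays, was -1.50 to -0.46 in the mandible and 0.22 to 0.62 in the maxilla. The olfactory score was also lower in the mandible, at -1.19 to -0.91 against 1.42 to 1.76 in the maxilla. The part of epithelial content in other results was not tested.

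Of 8 salivary and lacrimal gland genes, Pitx1 and Barx2 were higher in the mandible and Elf5 lower. Barx2, a homeobox gene of gland buds, had 8.04, 8.52 and 7.62 against 6.07, 6.96 and 6.50 (1.55, SE 0.299, adjusted p = 0.00281). Elf5, an ETS factor of gland epithelium, had 6.4, 6.16 and 5.91 against 10.92, 10.73 and 10.56 (-4.58, SE 0.718, adjusted p = 0.000949). The difference in Elf5 was 23.9-fold with no overlap. Of 12 vibrissa and skin placode genes, 3 were lower in the mandible, Lhx2, Eda and Sox2, and 2 without maxilla 1. Sox2, a progenitor factor of placodes and pharyngeal endoderm, had 9.23, 9.18 and 9.30 against 11.54, 11.70 and 11.70 (-2.41, SE 0.361, adjusted p = 0.000683). Of 6 pharyngeal genes, Tbx1, a T-box factor of arch mesoderm and endoderm, was higher in the mandible, with 9.14, 8.95 and 8.85 against 8.30, 8.18 and 8.21 (0.75, adjusted p = 0.0115, and 0.0524 without mandible 1), and Sox2 lower.

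Skeletal muscle genes made up the largest group on the mandible side. Of 31 tested, 28 were higher in the mandible and 1 lower, with a median of 3.79, and 24 were higher both without maxilla 1 and without the control arrays numbered 2. They held 9 of the 15 largest differences toward the mandible. Myh3, the embryonic myosin heavy chain, had 12.48, 12.51 and 12.16 in the mandible and 6.46, 7.42 and 6.98 in the maxilla (5.43, SE 1.18, adjusted p = 0.00584), or 43.1-fold. Mymx, which fuses myoblasts, had 10.21, 10.30 and 10.10 against 4.58, 5.11 and 4.67 (5.42, SE 0.896, adjusted p = 0.00117), at least 4.32 above background. Titin (Ttn), the giant spring of the sarcomere, had 11.49, 11.59 and 11.31 against 5.80, 6.61 and 6.48 (5.16, adjusted p = 0.00777), and 1 of its 6 probe sets, near background, gave -0.05. The light chains Myl4 (5.16), Myl1 (4.79) and Mylpf (4.69), the troponin Tnnc2 (4.98), the perinatal myosin Myh8 (4.86) and the actin Actc1 (4.74) were the other 6. Myh8 and Tnnc2 were at background in the maxilla, and their differences are at least 3.17 and 4.81. Actc1 lost its call without maxilla 1 (adjusted p = 0.0515). Tnnt2, the troponin of heart and embryonic muscle, was not on the list and also passed, with 10.37, 10.50 and 9.90 against 4.51, 5.32 and 5.24 (5.23, SE 1.04, adjusted p = 0.0034), at least 4.37 since its maxilla values lay at background. Outside these groups, Crh, the corticotropin-releasing hormone gene, had 8.55, 7.67 and 8.73 against 3.44, 3.53 and 3.26, a difference of 4.91 (SE 1.36, adjusted p = 0.0217) or at least 2.43, and was called in 2 of the 6 fits without 1 proximal array.

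The regulators of muscle formation stood on the same side. Myog, which drives terminal differentiation, had 12.09, 12.21 and 11.86 against 7.10, 7.76 and 7.55 (4.59, SE 0.977, adjusted p = 0.00511), and Myod1, the determination factor, had 10.89, 11.16 and 10.81 against 6.50, 7.18 and 6.92 (4.09, SE 0.786, adjusted p = 0.00276). Tcf21 (3.44, SE 0.465, adjusted p = 0.000276) and Msc (3.45, SE 0.681, adjusted p = 0.00335), factors of head muscle precursors, were higher too. Tcf21 was at background in the maxilla, and its difference is at least 2.34. These 4 stayed called without any 1 proximal array. Myf5 (2.72, adjusted p = 0.017) was called in 3 of these 6 fits. Pax7 went the other way, with 9.01, 9.26 and 8.75 in the mandible and 11.70, 10.53 and 10.96 in the maxilla (-2.06, adjusted p = 0.0152, and up to 0.0909 when 1 array was left out). Pax7, besides marking muscle stem cells, is expressed in cranial neural crest and nasal tissue. Chrnd and Ckm, an acetylcholine receptor subunit and muscle creatine kinase, did not pass, at 0.30 and 0.10. The muscle score was 1.35 to 1.68 in the mandible and -1.95 to -1.56 in the maxilla. Acta2, the actin of smooth and early skeletal muscle, was the member of 8 smooth muscle genes that was called (2.82, adjusted p = 0.0275), with maxilla 1 at 8.97 and the other maxilla arrays at 10.51 and 10.73, and it was called in 2 of the 6 fits without 1 proximal array (adjusted p = 0.156 without maxilla 1). Of 8 tendon genes, Thbs4, a matrix protein at muscle attachments, was higher in the mandible, with 10.41, 10.48 and 10.11 against 6.24, 7.49 and 7.56 (3.24, SE 0.556, adjusted p = 0.00142), while the tendon factors Scx (0.39) and Mkx (0.42) did not pass.

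**Figure D4:**
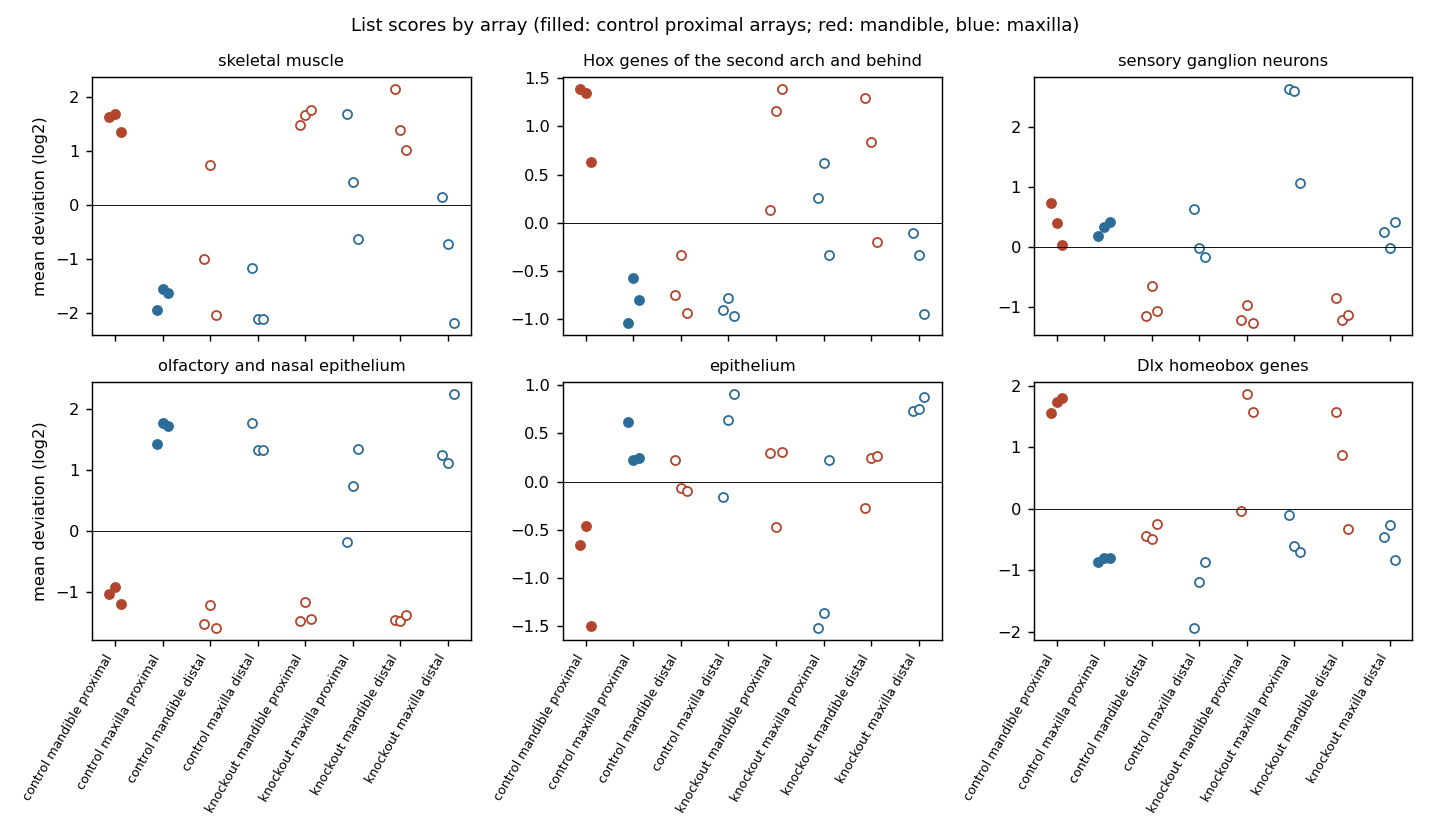
Mean deviation (log2, y axis) of the genes of 6 lists in each of the 24 arrays, with 1 point per array and the 8 groups along the x axis. Filled points are the 6 control proximal arrays, red for mandible and blue for maxilla. The muscle score is above 1 in the filled mandible points and below -1 in the filled maxilla points, and the sensory ganglion score is highest in 2 knockout maxilla proximal arrays.

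The neuronal genes called lay on both sides, in small numbers. Of 16 general neuron genes, 2 were higher in the mandible and 3 lower, and of 13 sensory ganglion genes again 2 were higher and 3 lower. Over all genes tested, 7.94% were higher and 6.51% lower. Pou4f1, a POU factor of sensory neurons, had 8.88, 8.37 and 8.05 in the mandible and 5.26, 5.25 and 5.43, at background, in the maxilla (3.12, SE 0.478, adjusted p = 0.00086), at least 2.55. The neurofilament genes Nefl, with 12.68, 12.39 and 11.85 against 8.64, 9.65 and 9.28 (3.12, SE 0.667, adjusted p = 0.00525), and Nefm (3.24, SE 0.700, adjusted p = 0.00557) shared its side, as did Prrxl1, a homeobox factor of sensory neurons (1.81, adjusted p = 0.0146, called in 4 of the 6 fits without 1 proximal array). Genes of neuronal precursors had the opposite direction. Neurog1, the determination factor of trigeminal and olfactory neurons, had 7.30, 6.75 and 6.04 against 9.29, 10.09 and 10.16 (-3.15, SE 0.496, adjusted p = 0.000949). Its other, dimmer probe set gave -0.09. Nhlh2 (-2.48, adjusted p = 0.00405) and Neurod1 (-2.0, adjusted p = 0.0123, and 0.063 without mandible 3), which act after Neurog1, were lower in the mandible too. Elavl3 (-1.74, adjusted p = 0.00689) kept its call without any 1 proximal array, while Elavl4 (-1.33) and Stmn2 (-1.14) were called in 1 and 0 of these 6 fits. The pan-neuronal genes Tubb3 (-0.86), Gap43 (0.12) and Dcx (0.07) did not pass. In each of the 10 genes called, mandible 1 had the highest and mandible 3 the lowest mandible value. The neuron score of mandible and maxilla overlapped, at -0.07 to 0.60 and 0.19 to 0.60.

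Other cell types differed little. Of 17 cartilage genes, the regulators Sox9 (-0.73, adjusted p = 0.0331) and Sox5 (-0.86, adjusted p = 0.0119) were lower in the mandible. Sox9 was called in 0 and Sox5 in 4 of the 6 fits without 1 proximal array. The cartilage matrix genes Col2a1 (-0.18) and Acan (0.02) did not pass. Of 8 bone genes Dlx5 was higher and the others, among them Sp7 (0.19) and Col1a1 (0.04), did not pass. Of 15 macrophage genes Lyz2 was higher in the mandible (0.95, adjusted p = 0.0493, called in 1 of these 6 fits), with 6.99 in maxilla 1 and 8.05 and 8.49 in the other maxilla arrays. Of 16 cell cycle genes Pcna was higher (0.21, adjusted p = 0.0236, called in 3 of these 6 fits). Of 14 endothelial, 8 glial, 9 erythroid and 10 immediate early genes 0 were called by limma, with 2, 2, 0 and 0 at an unadjusted p under 0.05. The endothelial and macrophage scores were lowest in maxilla 1, at -0.34 and -0.85.

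The question whether these differences also held at the distal end was addressed with the control distal arrays. These arrays also entered the proximal calls, through the choice of probe set, the filter and the shared estimate of spread. The calls at the 2 ends are therefore not independent. With only the 2 proximal control groups in the fit, 1221 genes were called higher in the mandible and 1333 lower. Of the 1182 genes higher in the proximal mandible, 500 were also called higher in the distal mandible, which is 42.3% of them and 50.8% of the 985 distal calls (6.62% of genes tested). Of the 969 lower, 542 were also called lower distally, 55.9% of them and 49.2% of 1101 (7.4% of genes tested). Opposite calls numbered 1 and 2. The difference between ends, proximal minus distal, was called for 0 of 14879 genes by limma, with 920 (6.18%) at an unadjusted p under 0.05 and a smallest adjusted p of 0.264. Nr2f1, an orphan nuclear receptor, had the smallest p. Its signals were 12.79, 12.56 and 13.08 in the proximal mandible and 8.47, 10.21 and 8.57 in the distal mandible, against 11.51 to 12.40 in the proximal maxilla and 11.92 to 12.57 in the distal maxilla, and the difference between ends was 3.87 (SE 0.679, unadjusted p = 2.03e-05, adjusted p = 0.264). Hand2 was called at both ends, with a distal difference of 8.11. Alx1 reached 12.34 to 12.72 in the distal mandible, so that its distal difference was -0.34. Of the 15 largest differences toward the proximal maxilla 13 were called distally as well, and of the 15 toward the proximal mandible 1 was, Hand2. The muscle genes differed by a median of 1.23 distally with 1 of 31 higher, and the Hox genes by 0.12 with 0 of 8. The test between ends called 242 genes with the control arrays alone and 394 with array weights, so its count depends on the fit, and the counts at each end are not a test of the difference between them.

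**Figure D5:**
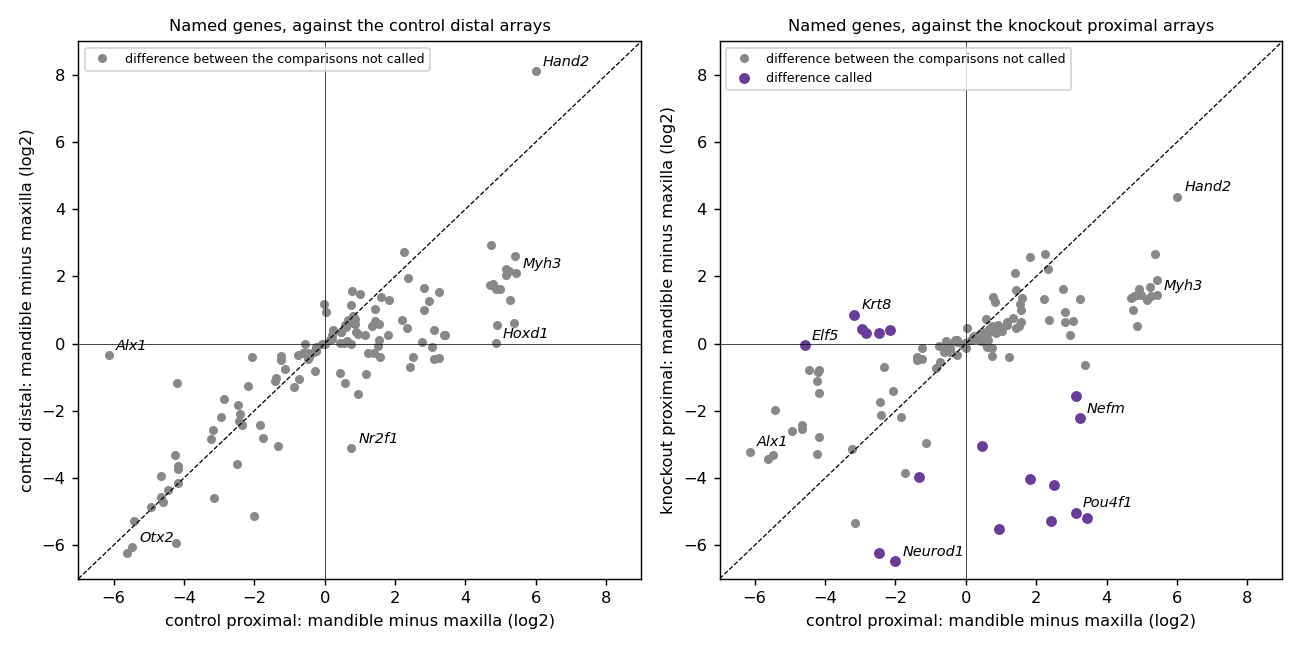
Each point is a named gene, with its control proximal difference between mandible and maxilla on the x axis and, on the y axis, its difference in the control distal arrays (left) or in the knockout proximal arrays (right), all log2. The dashed line marks equal differences, and purple points are genes whose difference between the comparisons was called. Pou4f1 lies at 3.12 on the x axis and at -5.03 in the knockout arrays.

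The proximal jaw difference was then set beside that of the arrays labelled knockout. Tgfbr2 had a signal of 12.17 to 12.65 in the knockout mandible and 11.79 to 12.39 in the knockout maxilla, no lower than in controls. The sources used here do not place its probe set relative to the deleted part, so this signal does not check the label. Of the genes called here, 392 were also called higher in the knockout mandible (33.2% of these and 46.2% of 849, itself 5.71% of genes tested) and 293 lower (30.2% of these and 28.0% of 1048, itself 7.04%). The sign in knockout was the same for 95.5% of the genes higher here and 83.7% of those lower. Opposite calls numbered 9 and 3. The control difference minus the knockout difference was called for 104 genes, 63 positive (0.423%) and 41 negative (0.276%). In 81 of them the estimates for controls and knockout had opposite signs, whatever their size. This is not a count of reversals, since some had an estimate near 0 in controls (Napb, 0.02 against -1.08 in knockout) or in knockout (Ocln, 0.13 against -2.69 in controls). The 104 genes included 15 genes of the neuron and ganglion lists and 7 of the epithelium list. Pou4f1 had 5.14, 5.51 and 5.44 in the knockout mandible and 11.41, 11.29 and 8.5 in the knockout maxilla, the reverse of controls and at background in the mandible, and its difference between genotypes was 8.15 (SE 0.676, adjusted p = 3.11e-06). Ppp1r1c, a protein phosphatase 1 inhibitor, had 5.98, 6.62 and 6.01 against 12.45, 12.16 and 9.52 (8.61, SE 0.716, adjusted p = 3.11e-06). Both calls held when any 1 of the 12 proximal arrays was left out. Krt8 had 9.48, 9.61 and 12.27 in the knockout mandible and 8.44, 9.27 and 11.08 in the knockout maxilla (-4.04, adjusted p = 0.0364) and was called in 3 of these 12 fits. With the control arrays numbered 2 left out the count of 104 was 5. The neuron scores of the knockout maxilla arrays were 2.70, 2.56 and 0.92, and their epithelial scores -1.52, -1.36 and 0.22. The part of neuron and epithelium content in these differences was not tested. Without knockout maxilla 3 the difference was called for 1423 genes and without knockout maxilla 2 for 20. Hand2 (4.38), Pitx1 (2.66), Dlx5 (1.61) and Dlx6 (2.58) were called higher in the knockout mandible too, and their differences between genotypes were not called.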

How the data were processed

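Per the submitters' processing notes the deposited values are log2 signals from RMA; the sources used here give no version. Each array held 45101 probe sets, with array medians of 7.26 to 7.38, and precision is limited by the array number. Of the probe sets 34945 had 1 gene symbol, 932 several and 9160 none in the platform annotation. For each of 18193 genes the brightest probe set by mean signal was kept, and 14879 genes above the 30th percentile in at least 3 arrays were tested. limma 3.58.1 (R 4.3.3) fitted the means of 8 groups to all 24 arrays, with Benjamini-Hochberg adjustment over all genes tested. Where the lower group lay below the 30th percentile, the difference is against background and a lower bound is given for genes called.

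The comparison, its members and the gene lists were chosen with earlier results of these data known. Named genes were the 15 largest called differences in each direction, all mandibular, maxillary and Dlx genes, up to 6 called members of other lists and the 3 or 5 leading genes of each difference of effects. Other genes, including those in the closing observations and the members given as not passing, were chosen after their values were seen. Deviations from the group means correlated at 0.12, 0.36 and 0.15 between same-numbered proximal control arrays of the 2 jaws, and at -0.20 to 0.05 between the others. Since the 3 deviations of a group sum to 0, these values depend on each other and are not separate signs of a pairing. No pairing is stated in the labels. The fit behind the reported values has no pair term, and the fit with the array number as a block was an alternative. Alternatives were other scalings, filters, probe set summaries, array weights, the replicate block, fewer arrays in the fit and leaving out arrays. The procedure was tested on simulated data. No chance test was run on any gene list.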

Additional observations from a re-analysis of the deposited data

Results flagged for a closer look

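The difference between mandible and maxilla at the proximal end was not alike in controls and in arrays labelled knockout for 104 genes, by the test of the difference itself in limma. Named genes of neurons had a positive value, control minus knockout: Ppp1r1c 8.61, Pou4f1 8.15, Ppp1r17 7.70, Onecut2 6.70, Prph 6.45, Prrxl1 5.85, Nefm 5.45, Nefl 4.68, Neurod1 4.47, Nhlh2 3.75, Isl1 3.51 and Elavl4 2.64. Of these, Nefm was called in 8, Nhlh2 in 4, Nefl in 3 and Elavl4 in 1 of the 12 fits that left out 1 proximal array, and the other 8 genes in all 12. Epithelial genes had a negative value: Elf5 -4.54, Krt8 -4.04, Krt18 -3.38, Cldn7 -3.18, Cldn6 -2.81 and Epcam -2.57. These were called in 1 to 4 of the 12 fits. The sensory ganglion score was 2.63, 2.59 and 1.07 in the knockout proximal maxilla arrays, and its part in these differences was not tested.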

How the results depend on the processing

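No named gene that was called changed direction under any alternative run. Of those not called, the sex-linked check genes aside, Hand1 (-0.05 to 0.16 when 1 proximal array was left out) and Grin3a (-0.11 to 0.13) changed sign. Eif2s3y, a check of sex, ran from -2.01 to 2.33 in the same fits. Of 100 named genes called, 60 stayed called in each of the 6 fits without 1 proximal array and 50 under every alternative. The count of 2151 genes (1182 higher in the mandible and 969 lower) became 6001 (2933 and 3068) with array weights, 649 (380 and 269) without the control arrays numbered 2, 1021 (393 and 628) without control maxilla 1 at both ends, which was chosen after seeing the data, and 534 (247 and 287) with a size of at least 1. Leaving out 1 proximal array gave 941 to 1902 genes, 377 to 1082 higher and 564 to 820 lower: 1328 without mandible 1, 1142 without mandible 2, 1278 without mandible 3 and 941 without maxilla 1. The share called higher was 64.6% with the mean of all probe sets. With the array number as a replicate block 2622 genes were called, 2126 of them shared with the 2151. In this paired fit, Lgr5 (adjusted p = 0.0549) and Lyz2 (0.0569) lost and Foxl2 (0.0359) gained a call, and no other named gene changed its call.

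The difference between ends, 0 genes, became 394 with array weights, 242 with control arrays alone, 8 without control maxilla 1 at both ends, and 0 to 1 without 1 array, where the 1 came without distal mandible 2. The difference between genotypes, 104 genes, became 2194 with array weights, 229 with number within genotype as a random replicate block, 5 without the control arrays numbered 2, 28 without control maxilla 1 at both ends, and 20 to 1423 without 1 proximal array. The causes were not tested.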

Other observations

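Further genes, chosen after their values were seen, also differed between the proximal jaws. Gata2, a zinc finger factor, had 8.42, 8.30 and 8.35 in the mandible and 12.51, 11.94 and 11.79 in the maxilla (-3.73, SE 0.359, adjusted p = 3.31e-05 in limma), and its relative Gata3 had 7.12, 7.04 and 5.63 against 10.14, 9.43 and 9.88 (-3.22, adjusted p = 0.000245). Eya2, a transcriptional coactivator, had 8.64, 8.73 and 8.85 against 10.37, 10.61 and 10.70 (-1.82, adjusted p = 5.47e-05). Gdnf, a ligand of the Ret receptor, differed by -1.46 (adjusted p = 0.000126). On the mandible side, Plac1, an X-linked gene known from the placenta, had 10.44, 10.47 and 10.42 against 7.43, 7.72 and 7.90 (2.76, SE 0.277, adjusted p = 4.15e-05). The nuclear receptor gene Nr5a2 (3.05, adjusted p = 0.000276) and Bnc1, a zinc finger gene of stratified epithelium (3.25, adjusted p = 0.000863), were higher there too.

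Imprinted genes of the Peg3 domain on chromosome 7 were higher in the mandible. Peg3 differed by 0.39 (SE 0.0649, adjusted p = 0.00113), Usp29 by 1.03 (SE 0.157, adjusted p = 0.0008) and Zim1 by 1.74 (SE 0.237, adjusted p = 0.00028), the last at least 1.34 since its maxilla values lay at background. Dlk1, an imprinted gene on chromosome 12, had 13.59, 13.65 and 13.47 against 11.16, 11.93 and 11.91 (1.90, adjusted p = 0.00319). Igf2, also imprinted, differed by 0.31 (adjusted p = 0.0301) and was called in 1 of the 6 fits without 1 proximal array. The genes of both paragraphs other than Igf2 were called in all 6.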
